A study of Mus musculus with 36 samples.

Results

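The genes of the proteasome were described in AΦ and monocytes sorted from mouse lungs. Genes were members if their symbol was Psma, Psmb, Psmc, Psmd, Psme, Psmf or Psmg followed by a number and if their mean was at least 1 FPKM (fragments scaled for transcript length and for the mapped fragments of the library) over the 36 libraries. This gave 46 members of the 27562 genes listed, and 5 of them, the inducible catalytic subunits Psmb8, Psmb9 and Psmb10 and the activator subunits Psme1 and Psme2, are reported apart from the other 41. Of 48 genes with such a symbol the 2 left out were Psma8, a core subunit known from testis, with a mean of 0.785 FPKM, and Psmb11, a core subunit known from the thymus, which was listed at 0 in 35 libraries. The lowest member inside the limit was the assembly chaperone Psmg2, with a mean of 1.61 FPKM and a value of 0 in 1 library.

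The mice were male C57BL/6J mice (C57BL/6 in the labels) carrying CD45.2. They were irradiated at 7 to 8 weeks of age with the chest shielded. They were then treated with busulfan and given marrow of CD45.1 donors, before any exposure, so that every group shared these treatments. They breathed filtered air (FA) or concentrated PM2.5 air for 4-weeks or 32-weeks. TR-AΦ and monocytes with CD45.2 stem from the host, and BM-AΦ and monocytes with CD45.1 from the donor marrow. There were 12 groups of 3 libraries, each population being taken from FA mice and from PM2.5 mice. At both times these were TR-AΦ and CD45.2 monocytes, and at 32-weeks also BM-AΦ and CD45.1 monocytes. The labels number the AΦ and monocytes of the later time 1 for CD45.1 and 2 for CD45.2 by a key that is given for AΦ alone, so the origin of those monocytes rests on reading them the same way. The labels do not say whether libraries of different populations came from the same mice. The study states that 3 mice of each exposure and time were picked for sequencing, so populations of 1 exposure and time may share mice. They were compared as unpaired. AΦ were sorted as CD64+ CD11c hi CD11b lo cells, and no BM-AΦ of 4-weeks are in the comparisons.

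The proteasome is the protease that degrades most proteins tagged with ubiquitin. Its core is a barrel of outer rings of alpha subunits (Psma) and inner rings of beta subunits (Psmb), and the regulatory particle on its ends recognises and unfolds substrates with ATPases (Psmc) and non-ATPase subunits (Psmd). Psmb5, Psmb6 and Psmb7 carry the active sites of the constitutive core, and interferon-γ and other inflammatory signals are known to replace them with Psmb8, Psmb9 and Psmb10, which gives the immunoproteasome. Psme1 and Psme2 form PA28, an activator that opens the core without ATP, and immunoproteasome and PA28 are known for their part in making peptides for MHC class I. Blood-derived cells are known to hold immunoproteasome also without such signals.

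Sums of markers separated the 2 cell types in every library. The sum of 13 AΦ markers was 7045 to 14775 FPKM in the 18 AΦ libraries and 299 to 1757 in the 18 monocyte libraries, with Siglecf at 69.6 to 157 and 0.179 to 8.99 FPKM. A large part of the AΦ sum was Chil3, at 3636 to 10184 FPKM in AΦ and 98.3 to 1142 in monocytes. Fabp4 of the same list overlapped between the cell types (14.6 to 88.2 and 1.38 to 42.9 FPKM). The sum of 12 monocyte markers was 36.4 to 193 FPKM in AΦ and 970 to 3156 in monocytes, with Ly6c2 at 0 to 16.5 and 127 to 516 FPKM. Of other cell types, 8 neutrophil markers summed to 7.65 to 56.1 FPKM in AΦ and 7.85 to 1011 in monocytes with Ly6g at 0 in 17 libraries of each, 7 dendritic cell markers to 1.51 to 31.4 and 11.3 to 165, 6 red cell markers to 0 to 63.1 and 0 to 157, and 8 epithelial and endothelial markers to 45.8 to 182 and 13.3 to 57.4. The 10 T and NK cell markers summed to 181 to 256 FPKM in AΦ and 4.61 to 100 in monocytes, and in AΦ only 1 of them had a mean of at least 1 FPKM. The 6 B cell markers summed to 23.1 to 42.3 and 2.07 to 12.8 FPKM, again with only 1 such gene in AΦ. The FPKM of all genes summed to 1839580 to 2580780 in AΦ and 2320650 to 3339020 in monocytes, so that a given FPKM is a larger share of an AΦ library. The number of reads behind an FPKM is unknown here.

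Core subunits were among the highest members. FPKM are per transcript length, so that levels of genes can be set beside each other. Of the 7 alpha ring genes, means over the libraries ran from 2.204 FPKM for Psma3 to 73.2 for Psma7, the highest of all members. The 4 beta ring genes without an active site ran from 12.2 for Psmb3 to 44.9 for Psmb4. The catalytic subunits of the constitutive core had means of 39.5 for Psmb5, 21.9 for Psmb7 and 14.1 FPKM for Psmb6. Their inducible counterparts had means of 49.2 for Psmb8, 13.9 for Psmb9 and 24.7 FPKM for Psmb10. The PA28 genes stood at 33.4 for Psme1 and 7.29 FPKM for Psme2. In the regulatory particle the 6 ATPases ran from 6.17 for Psmc2 to 18.4 FPKM for Psmc4 and the 11 non-ATPases from 4.79 for Psmd12 to 61.9 for Psmd8, a lid subunit. The 7 assembly chaperones ran from Psmg2 to Psmg4 at 27.8 FPKM. The other 3 were Psme3 at 25.7, the nuclear activator Psme4 at 6.30 and the inhibitor Psmf1 at 7.42 FPKM. The 46 members summed to 673.5 to 1065.6 FPKM in a library, which was 0.0303 to 0.0527% of all FPKM in AΦ (median 0.0415%) and 0.0244 to 0.0431% in monocytes (median 0.0323%).

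Some members, low ones among them, have a near-identical copy in the genome. In GENCODE transcripts 9 of the 46 members had 1 or more copies of at least 95% identity over 500 or more aligned bases, 14 copies in all. Gm13835, a copy of Psma3 on chromosome 6 (31141979-31142663, mm10), was identical to it over 665 aligned bases and had a mean of 212 FPKM against 2.204 for Psma3, and Psma3 held 1.03% of the summed FPKM of itself and its copies. The member held 8.25% of that sum for Psma5, 10.3% for Psme2, 36.1% for Psma4, 42.4% for Psmd11, 55.6% for Psmb3, 76.7% for Psmd2, 86.1% for Psmb5 and 92.1% for Psmc1. The 2.204 FPKM of Psma3 and 2.76 of Psma5 stood beside 15.7 FPKM for the median alpha ring gene. With copies added they came to means of 215 and 33.4 FPKM. Psma2 and Psma7, for which no copy was listed, had means of 6.07 and 73.2 FPKM. How the authors' counting divided reads between such copies was not tested, and the values of these 9 members are uncertain for this reason.

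**Figure D1:**
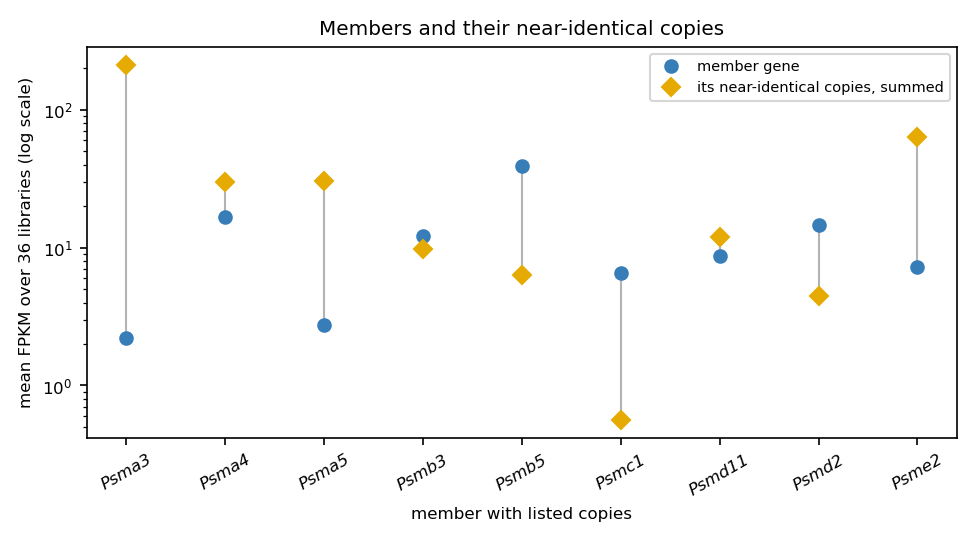
Mean FPKM over 36 libraries (log scale) of the 9 members with near-identical copies (circles) and the summed mean FPKM of their copies (diamonds). Copies exceed the member for Psma3, Psma4, Psma5, Psmd11 and Psme2, most for Psma3 at 2.204 against about 212 FPKM.

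Psme2, which encodes the beta subunit of PA28, has a copy annotated as protein coding, Psme2b on chromosome 11 (48945354-48946190, minus strand, mm10), and the transcripts are 99.4% identical over 794 bases. Over the 720 coding bases they differ at 5 positions. The stretch with the most differences is shown because reads of the 2 genes can be told apart only where such differences lie. It is coding bases 454 to 543 of each, 90 bases with 3 of the 5 differences, in capitals, read from GENCODE transcripts. In Psme2 it spans 2 exons within chr14:55588049-55588276 on the minus strand, and in Psme2b it lies in 1 exon at chr11:48945576-48945665 on the minus strand.
Psme2: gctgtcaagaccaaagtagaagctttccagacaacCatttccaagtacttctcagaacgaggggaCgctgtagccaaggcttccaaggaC
Psme2b: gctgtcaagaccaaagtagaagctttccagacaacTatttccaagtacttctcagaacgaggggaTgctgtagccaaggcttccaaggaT
Psme2b had a mean of 63.5 FPKM, so most of the signal of this pair was listed under the copy, and values of Psme2 are given beside those with Psme2b added.

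Psmb8 (ENSMUSG00000024338.14, chromosome 17, 34197721-34201454, plus strand), the inducible subunit that takes the place of Psmb5, had the highest median of the 5 genes reported apart in every population. Over 6 libraries each its FPKM (lowest, median, highest) was 30.8, 34.5 and 43.4 in TR-AΦ at 4-weeks, 35.5, 42.8 and 45.7 in TR-AΦ at 32-weeks and 38.3, 43.0 and 47.7 in BM-AΦ. In monocytes it was 44.1, 58.0 and 67.7 in CD45.2 cells at 4-weeks, 30.6, 50.8 and 74.7 in CD45.2 cells at 32-weeks and 48.3, 64.5 and 82.3 in CD45.1 cells. All TR-AΦ of 4-weeks were below all monocytes of 4-weeks, and all BM-AΦ were below all CD45.1 monocytes, but at 32-weeks the CD45.2 monocytes spanned the whole range of TR-AΦ. Psmb9 (ENSMUSG00000096727.2, chromosome 17, 34181987-34187764, minus strand), which takes the place of Psmb6, had medians of 9.83, 9.51 and 13.3 FPKM in TR-AΦ at 4-weeks, TR-AΦ at 32-weeks and BM-AΦ. Its medians in CD45.2 monocytes of both times and in CD45.1 monocytes were 18.2, 14.8 and 16.3 FPKM. At 32-weeks its 6 TR-AΦ values (7.88 to 11.4 FPKM) lay below the 6 values of CD45.2 monocytes (11.6 to 22.0). Psmb10 (ENSMUSG00000031897.8, chromosome 8, 105935735-105938444, minus strand), which takes the place of Psmb7, differed least, with medians of 21.5, 23.0 and 22.5 FPKM in the AΦ populations and 28.7, 24.1 and 23.9 FPKM in the monocytes in the same order. Its groups did not overlap at 4-weeks (16.4 to 23.6 in TR-AΦ and 24.4 to 43.5 FPKM in monocytes) and overlapped at 32-weeks. Psmb8 and Psmb9 lie close to each other in the MHC region beside Tap1. Annotated genes overlap Psmb9 (Tap1), Psmb8 (Gm20496), Psmb10 (Gm16156) and Psme1 (Emc9), and since the strand setting of the authors' counting is not given in the sources used here, reads of the overlapping parts cannot be told apart.

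The alpha subunit of PA28, Psme1 (ENSMUSG00000022216.16, chromosome 14, 55578123-55581529, plus strand), separated the 2 cell types in each pair of populations. Its FPKM was 11.2, 21.2 and 27.9 in TR-AΦ at 4-weeks, 18.7, 25.7 and 27.6 in TR-AΦ at 32-weeks and 23.9, 26.3 and 30.3 in BM-AΦ (lowest, median, highest). In CD45.2 monocytes it was 34.0, 43.2 and 62.7 at 4-weeks and 28.4, 39.4 and 58.4 at 32-weeks, and in those with CD45.1 34.0, 44.1 and 50.3 FPKM. No AΦ population overlapped the monocytes of its own origin and time. Psme2 (ENSMUSG00000079197.10, chromosome 14, 55587441-55591113, minus strand) had medians of 5.12, 5.95 and 6.88 FPKM in the AΦ populations and 11.5, 5.28 and 9.08 FPKM in CD45.2 monocytes at 4-weeks, those of 32-weeks and CD45.1 monocytes. Psme2b had medians of 46.1, 49.8 and 62.0 FPKM in AΦ and 86.0, 65.1 and 70.5 FPKM in monocytes.

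**Figure D2:**
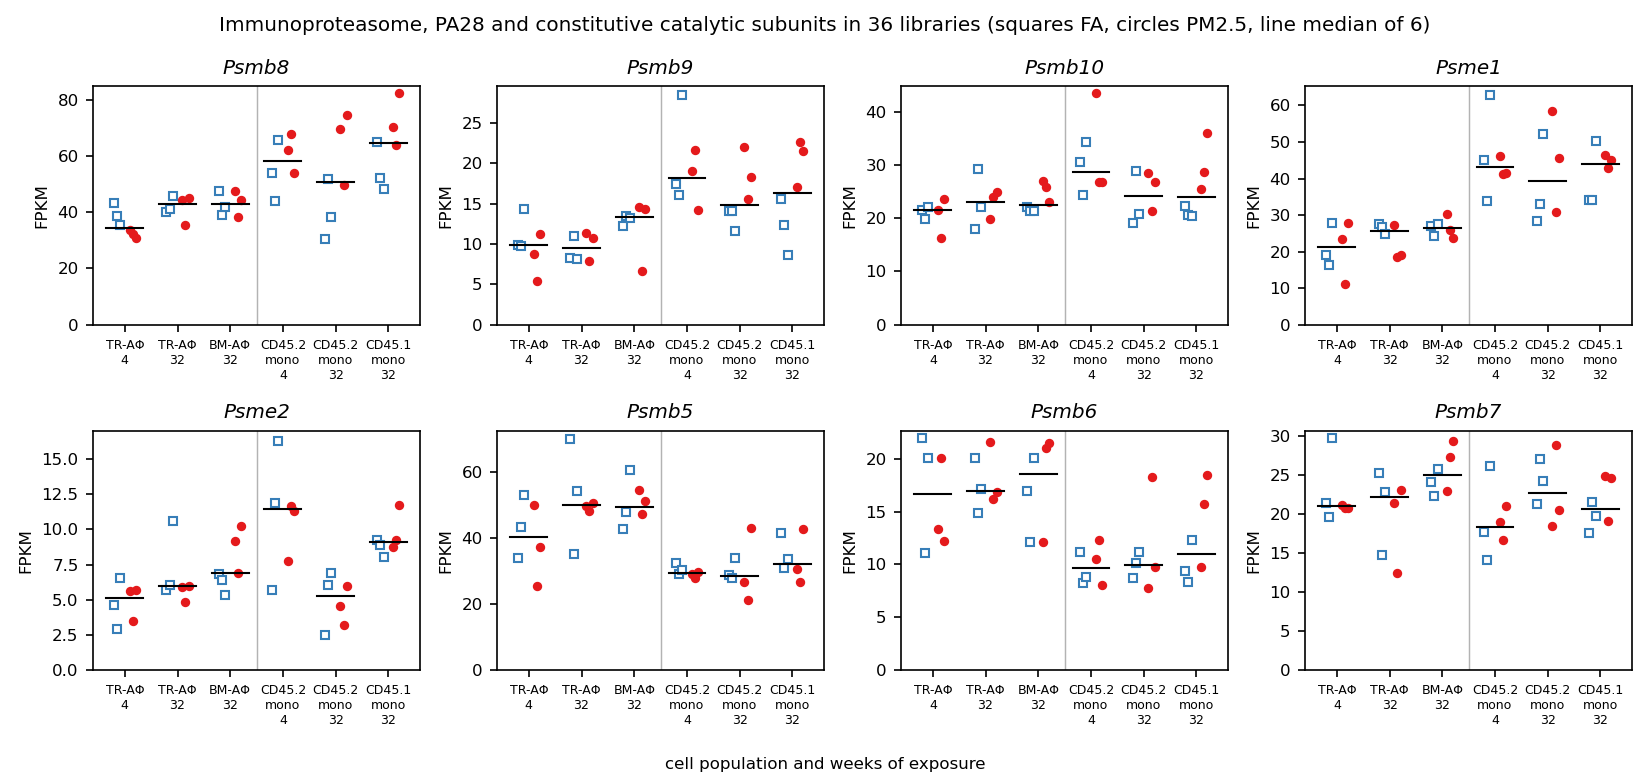
FPKM of the 5 genes reported apart and of the constitutive catalytic subunits Psmb5, Psmb6 and Psmb7 in each of 36 libraries, by cell population and weeks of exposure (squares FA, circles PM2.5, line median of 6). Psme1 is higher in the monocytes than in the AΦ of the same origin and time, and the AΦ medians of Psmb5 (40.3 to 50.2 FPKM) lie above its monocyte medians (28.3 to 32.2).

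Libraries were compared with limma on log2(FPKM + 1), fitted on all 13307 genes whose mean over both cell types was 1 FPKM or more, with Benjamini-Hochberg adjustment over all of them and a threshold of 0.05. At low FPKM this scale makes a difference look smaller than it is. In such bulk samples fewer cells of a type and less RNA per cell cannot be told apart. At 4-weeks TR-AΦ were set against CD45.2 monocytes, 6 libraries each with both exposures. Of the 46 members 10 were higher in TR-AΦ, where 22.6% of all genes tested were higher, and 9 were lower, where 25.5% of all genes were lower. At 32-weeks 16 members were higher and 5 lower in BM-AΦ than in CD45.1 monocytes (27.1% and 23.8% of all genes), and 20 were higher and 5 lower in TR-AΦ than in CD45.2 monocytes (23.6% and 23.7%). The median log2 difference of the members, AΦ minus monocytes, was 0.08, 0.37 and 0.38 in this order, and that of all genes tested was -0.02, 0.03 and 0.00. The 3 comparisons share no library, but they share 1 estimate of the spread. The study states that 3 mice of each exposure and time were picked for sequencing. Both comparisons of 32-weeks may therefore rest on the same mice, so calls made in all 3 are not independent. Psmc2, Psmc4, Psmc5, Psmd1, Psmd2, Psmd6 and Psmd7, 7 genes of the regulatory particle, were higher in AΦ in all 3, and Psma7, Psme1, Psme4 and Psmg4 were lower in all 3. No member was higher in 1 of them and lower in another, and 15 were called in none. Counted by libraries that did not overlap at all, 1 member was higher and 4 lower at 4-weeks (13.6% and 16.1% of all genes), 9 and 5 in BM-AΦ (16.1% and 14.7%) and 8 and 3 in TR-AΦ at 32-weeks (12.9% and 14.0%).

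By role, all 5 genes reported apart were lower in TR-AΦ at 4-weeks, where their median log2 difference was -0.92. At 32-weeks 2 of 5 were lower in each comparison, with medians of -0.34 for BM-AΦ and -0.25 for TR-AΦ. Of all genes 25.5%, 23.8% and 23.7% were lower at 4-weeks, in BM-AΦ and in TR-AΦ at 32-weeks. None of the 5 was higher in AΦ. After rescaling of the libraries to equal sums several of these calls were lost. They were Psmb8 at 4-weeks and in BM-AΦ, Psmb10 at 4-weeks, Psme1 in BM-AΦ and Psmb9 in TR-AΦ at 32-weeks. Psme1 was lower by limma at 4-weeks with a log2 difference of -1.11 ± 0.19 (SE, adjusted p = 2.9e-05), at 32-weeks in BM-AΦ with -0.64 ± 0.19 (adjusted p = 0.0073) and in TR-AΦ with -0.73 ± 0.19 (adjusted p = 0.0029). Psmb8 was lower at 4-weeks with -0.68 ± 0.13 (limma adjusted p = 6.1e-05) and in BM-AΦ with -0.54 ± 0.13 (adjusted p = 8.5e-04), while the difference of TR-AΦ at 32-weeks, -0.25 ± 0.13, missed the threshold (adjusted p = 0.10). Psmb9 was lower in TR-AΦ at 4-weeks with -0.92 ± 0.19 (limma adjusted p = 1.8e-04) and at 32-weeks with -0.67 ± 0.19 (adjusted p = 0.0043), and its difference in BM-AΦ was -0.34 (adjusted p = 0.14), or 0.030 after rescaling of the libraries to equal sums. Psmb10 passed only at 4-weeks, with -0.54 ± 0.14 (limma adjusted p = 0.0016). At 32-weeks its differences were -0.10 in BM-AΦ and -0.07 in TR-AΦ (adjusted p = 0.58 and 0.70), and 0.27 and 0.098 after rescaling of the libraries to equal sums.

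Psme2 was also called only at 4-weeks, where the log2 difference was -0.99 ± 0.22 (limma adjusted p = 4.5e-04). At 32-weeks its differences were -0.30 in BM-AΦ (adjusted p = 0.26) and 0.38 in TR-AΦ (adjusted p = 0.16). Psme2b was lower in TR-AΦ at 4-weeks with -1.01 (limma adjusted p = 1.1e-05) and at 32-weeks with -0.42 (adjusted p = 0.041), and it differed by -0.27 in BM-AΦ (adjusted p = 0.17). With the FPKM of Psme2b added to Psme2 the log2 differences were -1.03, -0.28 and -0.34 for 4-weeks, BM-AΦ and TR-AΦ at 32-weeks (limma adjusted p = 7.8e-06, 0.16 and 0.092), so that the value in TR-AΦ at 32-weeks took the opposite sign.

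**Figure D3:**
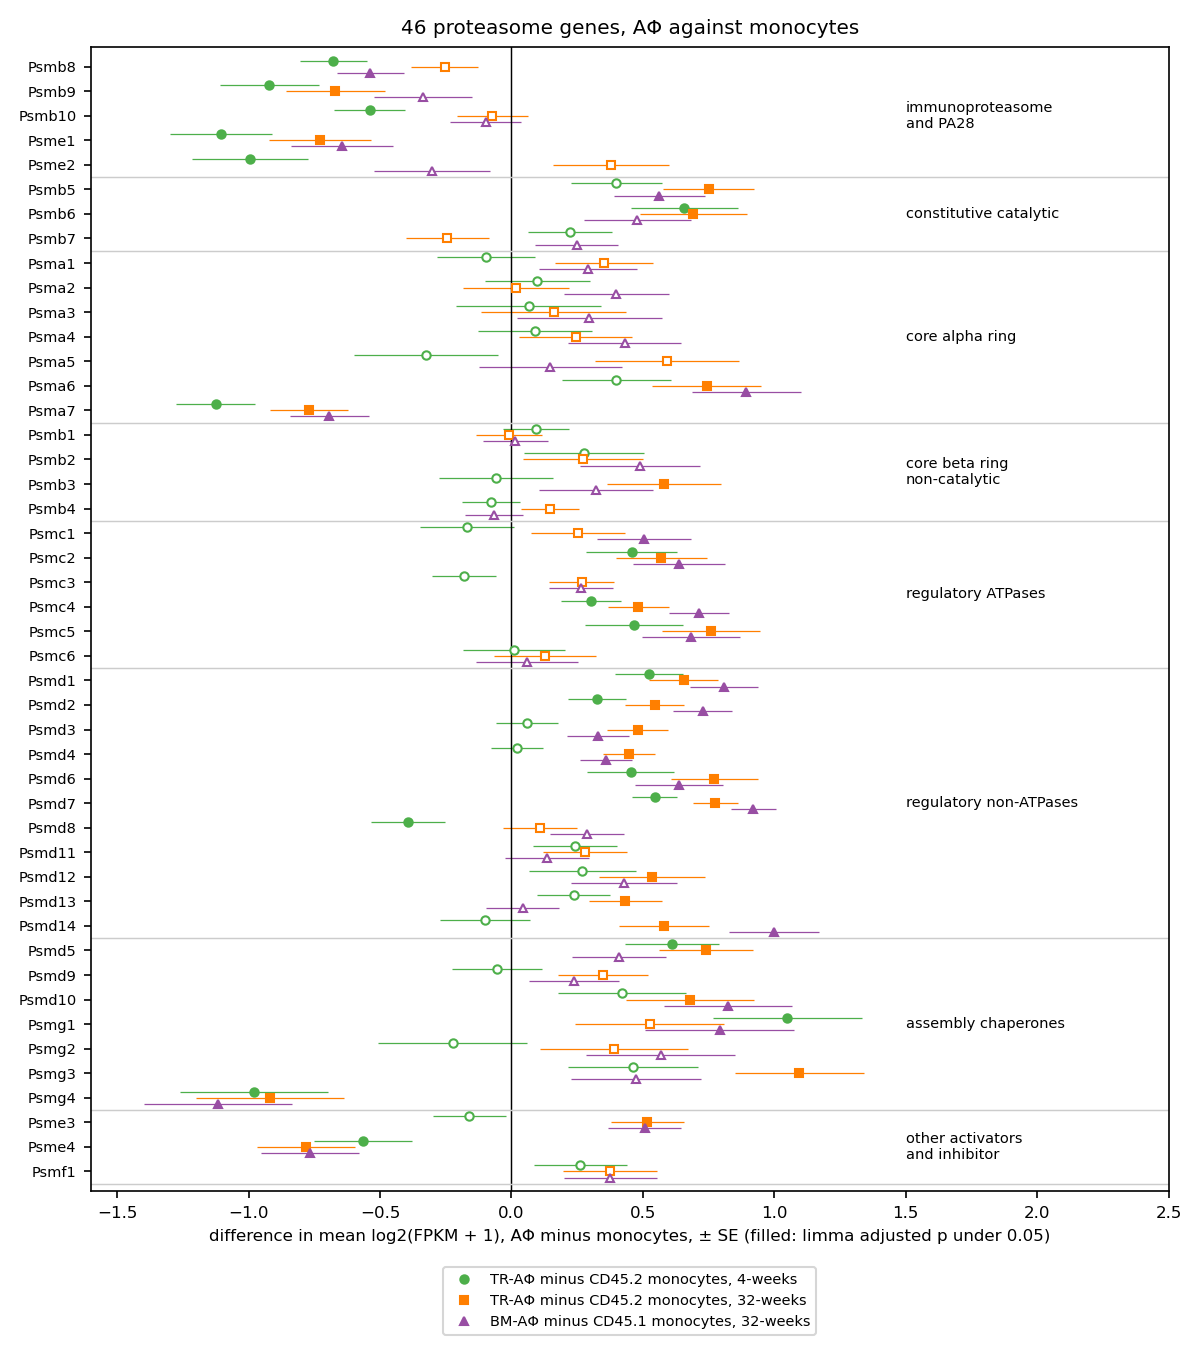
Log2 difference, AΦ minus monocytes, ± SE, of 46 members grouped by role, for TR-AΦ at 4-weeks (circles), TR-AΦ at 32-weeks (squares) and BM-AΦ at 32-weeks (triangles), filled where the limma adjusted p is under 0.05. Filled symbols of the 5 genes reported apart all lie left of 0, and filled symbols of the ATPases all lie right of 0.

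Of the constitutive catalytic subunits Psmb5 and Psmb6 were each called higher in AΦ in 2 of 3 comparisons, and Psmb7 in none. Psmb5 (chromosome 14, 54614119-54618022, minus strand), which carries the chymotrypsin-like site, had medians of 40.3, 50.2 and 49.6 FPKM in TR-AΦ at 4-weeks, TR-AΦ at 32-weeks and BM-AΦ and 29.5, 28.3 and 32.2 FPKM in CD45.2 monocytes of both times and CD45.1 monocytes. It was higher by limma in TR-AΦ at 32-weeks with a log2 difference of 0.75 ± 0.17 (adjusted p = 7.4e-04) and in BM-AΦ with 0.56 ± 0.17 (adjusted p = 0.0082). At 4-weeks its difference was 0.40 ± 0.17 (adjusted p = 0.060), and with its copy Gm3375 added 0.44 (adjusted p = 0.022). Psmb6 (chromosome 11, 70525367-70527858, plus strand), of the caspase-like site, was higher in TR-AΦ at 4-weeks with 0.66 ± 0.20 (limma adjusted p = 0.0087) and at 32-weeks with 0.69 ± 0.20 (adjusted p = 0.0062), and in BM-AΦ the difference was 0.48 (adjusted p = 0.051). Psmb7 (chromosome 2, 38588036-38644087, minus strand), of the trypsin-like site, was called in no comparison, with differences of 0.22, 0.25 and -0.24 (limma adjusted p = 0.26, 0.20 and 0.22 for 4-weeks, BM-AΦ and TR-AΦ at 32-weeks). Its median FPKM ran from 18.3 to 24.96 over the 6 populations.

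The inducible and the constitutive subunit of a site can be set against each other within a library, which does not depend on the scaling of that library beyond the pseudocount of 1. These log2 ratios are given as a description, with no test. The ratio of Psmb8 to Psmb5 had a median of -0.23 in the 18 AΦ libraries (-0.79 to 0.34), and 4 of 18 were above 0. In monocytes its median was 0.85 (0.09 to 1.35), and 18 of 18 libraries were above 0. The 2 cell types thus overlapped only where the lowest monocyte libraries met the highest AΦ libraries. The ratio of Psmb9 to Psmb6 had a median of -0.56 in AΦ (2 of 18 above 0) and 0.66 in monocytes (16 of 18 above 0). The ratio of Psmb10 to Psmb7 had medians of -0.06 and 0.35, with 8 and 14 of 18 libraries above 0, and the cell types overlapped over most of their range. By population, the median ratio of Psmb8 to Psmb5 was -0.21, -0.21 and -0.25 in TR-AΦ at 4-weeks, TR-AΦ at 32-weeks and BM-AΦ, and 0.95, 0.83 and 0.84 in CD45.2 monocytes at 4-weeks, those of 32-weeks and CD45.1 monocytes. The medians in TR-AΦ and BM-AΦ thus lay close together for this pair. The median of Psmb10 to Psmb7 was 0.71 in CD45.2 monocytes at 4-weeks, -0.03 in those of 32-weeks and 0.19 in CD45.1 monocytes.

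**Figure D4:**
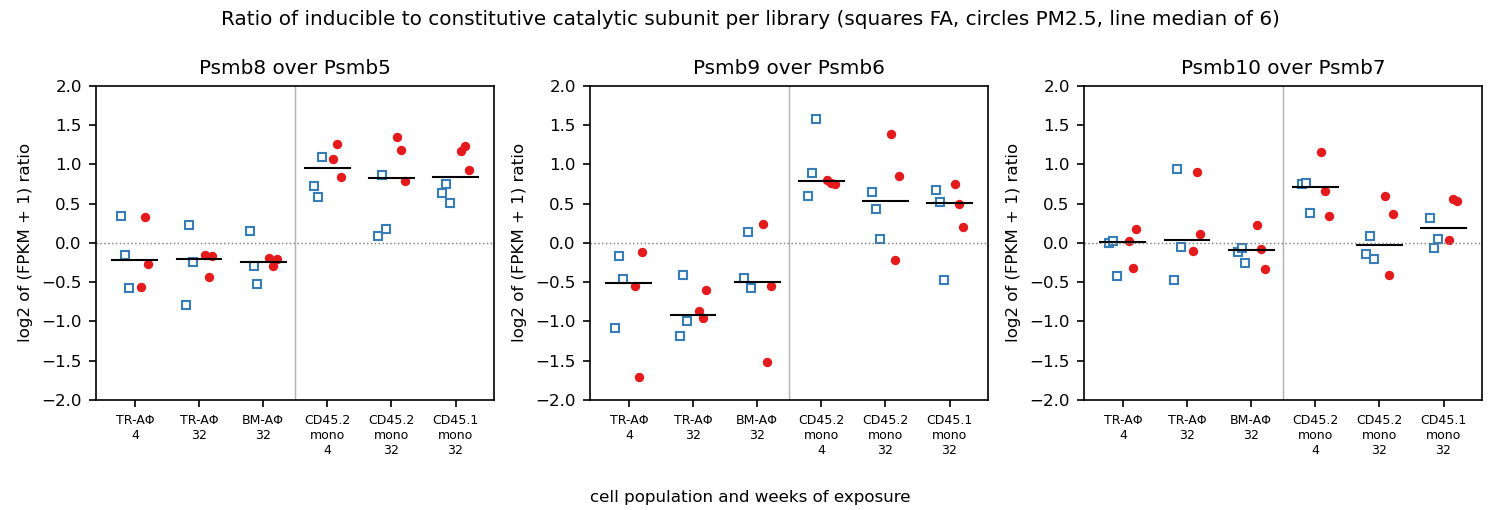
Log2 ratio of (FPKM + 1) of each inducible catalytic subunit to its constitutive counterpart in every library, by cell population and weeks of exposure (squares FA, circles PM2.5, line median of 6). For Psmb8 over Psmb5 all 18 monocyte libraries are above 0 and 4 of 18 AΦ libraries are.

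In the core rings most subunits were called in no comparison. Of the 7 alpha ring genes Psma7 was lower in AΦ each time and Psma6 was higher at 32-weeks, and Psma1, Psma2, Psma3, Psma4 and Psma5 were not called. Psma7 (chromosome 2, 180036374-180042433, minus strand) had 29.97, 48.2 and 61.8 FPKM in TR-AΦ at 4-weeks, 37.9, 48.6 and 67.2 in TR-AΦ at 32-weeks and 54.6, 57.0 and 65.0 in BM-AΦ (lowest, median, highest). Its medians in CD45.2 monocytes of both times and in CD45.1 monocytes were 104, 87.3 and 95.1 FPKM, and the lowest of the 18 monocyte libraries had 64.7. Its log2 differences were -1.13 ± 0.15 at 4-weeks (limma adjusted p = 4.3e-07), -0.69 ± 0.15 in BM-AΦ (adjusted p = 3.4e-04) and -0.77 ± 0.15 in TR-AΦ at 32-weeks (adjusted p = 1.1e-04). Psma6 was higher in BM-AΦ with a difference of 0.89 and in TR-AΦ at 32-weeks with 0.74, and its medians there were 20.9 and 19.2 FPKM against 11.6 and 11.9 in the monocytes. Psma3 with its copies added was higher in BM-AΦ, with 0.56 (limma adjusted p = 0.0040), and alone it was not called. Of the beta ring genes without an active site, Psmb3 alone was called once, higher in TR-AΦ at 32-weeks with 0.58, and this call was lost when its copies were added.

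In the regulatory particle the members called were higher in AΦ with 1 exception. Of the 6 ATPases, which unfold the substrate and feed it into the core, 3 were higher at 4-weeks, 4 in BM-AΦ and 3 in TR-AΦ at 32-weeks, and none was lower. Of all genes 22.6%, 27.1% and 23.6% were higher in these comparisons. Psmc4 had medians of 19.4, 21.3 and 23.6 FPKM in TR-AΦ at 4-weeks, TR-AΦ at 32-weeks and BM-AΦ and 16.2, 14.4 and 14.2 FPKM in CD45.2 monocytes of both times and in CD45.1 monocytes. Its log2 differences were 0.30, 0.48 and 0.71 for 4-weeks, TR-AΦ at 32-weeks and BM-AΦ. Those of Psmc5 were 0.47, 0.76 and 0.68, and those of Psmc2 were 0.46, 0.57 and 0.64, all called. Psmc1 was higher in BM-AΦ alone, with 0.50, and Psmc3 and Psmc6 were called nowhere. Of the 11 non-ATPases 4 were higher at 4-weeks, 7 in BM-AΦ and 9 in TR-AΦ at 32-weeks, against the same shares of all genes. The exception was Psmd8, lower in TR-AΦ at 4-weeks with -0.39 (limma adjusted p = 0.0214).

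Psmd7, a lid subunit that pairs with the deubiquitinase Psmd14, varied least of all members within groups (SD of 0.13 on the log2 scale, against a median of 0.31 over the members). Its FPKM was 23.5 to 38.5 in the 18 AΦ libraries (median 31.7) and 13.7 to 20.4 in the 18 monocyte libraries (median 18.5), so that no AΦ library overlapped a monocyte library. Its log2 differences by limma were 0.54 ± 0.08 at 4-weeks (adjusted p = 5.1e-06), 0.92 ± 0.08 in BM-AΦ (adjusted p = 7.5e-10) and 0.78 ± 0.08 in TR-AΦ at 32-weeks (adjusted p = 1.7e-08). Psmd14 had medians of 6.34 FPKM in TR-AΦ and 6.57 in monocytes at 4-weeks, and 8.999 in BM-AΦ against 4.35 in CD45.1 monocytes. It was higher in BM-AΦ with 0.998 ± 0.17 (limma adjusted p = 2.0e-05) and in TR-AΦ at 32-weeks with 0.58, and was not called at 4-weeks. The scaffold subunits Psmd1 and Psmd2, the largest of the base, were higher in all 3 comparisons, Psmd1 with 0.52, 0.66 and 0.81 and Psmd2 with 0.32, 0.54 and 0.73 for 4-weeks, TR-AΦ at 32-weeks and BM-AΦ. The ubiquitin receptor Psmd4 was higher at 32-weeks, with 0.36 in BM-AΦ and 0.45 in TR-AΦ.

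Assembly chaperones were called in both directions. Psmg1, Psmg2, Psmg3 and Psmg4 help to build the core, and Psmd5, Psmd9 and Psmd10 help to build the base of the regulatory particle. Psmg4 was lower in AΦ in all 3 comparisons, with log2 differences of -0.98 at 4-weeks (limma adjusted p = 0.0051), -1.12 in BM-AΦ (adjusted p = 0.0016) and -0.92 in TR-AΦ at 32-weeks (adjusted p = 0.0085). Its medians were 17.5, 21.5 and 18.3 FPKM in TR-AΦ at 4-weeks, TR-AΦ at 32-weeks and BM-AΦ and 32.4, 40.0 and 38.0 FPKM in the monocytes. Its partner Psmg3 was higher in TR-AΦ at 32-weeks with 1.09 ± 0.25 (limma adjusted p = 5.7e-04), where the 6 libraries had 7.87 to 11.2 FPKM against 1.97 to 7.25 in CD45.2 monocytes. Psmg1 was higher in TR-AΦ at 4-weeks with 1.05 ± 0.28 (limma adjusted p = 0.0030) and in BM-AΦ with 0.79. Psmd5 was higher in TR-AΦ at both times with 0.61 and 0.74, and Psmd10 was higher at 32-weeks with 0.82 in BM-AΦ and 0.68 in TR-AΦ. Psmg2 and Psmd9 were not called. Of the activators, Psme4 was lower in AΦ in all 3 comparisons, with -0.57, -0.77 and -0.78 for 4-weeks, BM-AΦ and TR-AΦ at 32-weeks (limma adjusted p = 0.0135, 0.0012 and 0.0010). Psme3, a nuclear activator related to PA28, was higher at 32-weeks with 0.51 in BM-AΦ and 0.52 in TR-AΦ (adjusted p = 0.0032 and 0.0029). Psmf1 was not called.

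The split depended on the scaling of the libraries. With the FPKM of every library rescaled to the same sum of 1000000, the difference of the median gene went up by 0.19 at 4-weeks, 0.26 for BM-AΦ and 0.11 for TR-AΦ at 32-weeks. Then 21 members were higher and 4 lower at 4-weeks (31.9% and 16% of all genes), 34 and 1 in BM-AΦ (40.9% and 13.8%) and 25 and 4 in TR-AΦ at 32-weeks (28.7% and 17.9%). The log2 difference of Psmb8 became -0.35 at 4-weeks and -0.14 in BM-AΦ, that of Psmb10 at 4-weeks -0.22, that of Psme1 in BM-AΦ -0.25, that of Psma7 in BM-AΦ -0.29, that of Psme4 in BM-AΦ -0.36 and that of Psmb9 in TR-AΦ at 32-weeks -0.46, and all 7 calls were lost, as were those of Psmd8, Psme4 and Psmg4 at 4-weeks. Over 20 alternatives and left-out libraries, 9 of the 19 calls at 4-weeks were kept in every one (higher Psmb6, Psmd1, Psmd5, Psmd7 and Psmg1, lower Psma7, Psmb9, Psme1 and Psme2). In BM-AΦ 14 of 21 were kept, of which Psmg4 alone was lower, and in TR-AΦ at 32-weeks 20 of 25 were kept, lower for Psma7, Psme1 and Psme4. Libraries with markers of another cell type entered these counts. Without the TR-AΦ library of FA replicate 2 at 4-weeks, whose monocyte markers summed to 193 FPKM, 6 members were higher and 9 lower. Without the monocyte library of PM2.5 replicate 2 at 4-weeks, with neutrophil markers at 1011 FPKM, the counts were 10 and 8. Without the CD45.2 monocyte library of PM2.5 replicate 1 at 32-weeks, with AΦ markers at 1757 FPKM, they were 18 and 6. Each of these libraries was left out singly. A TR-AΦ library of PM2.5 mice at 4-weeks with monocyte markers at 177 FPKM stayed in. So did a monocyte library of FA mice at 4-weeks with neutrophil markers at 328 FPKM.

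Other genes that serve the proteasome were taken from a list of 20, of which 19 were tested. In AΦ 6 were higher and 3 lower at 4-weeks (22.6% and 25.5% of all genes), 8 and 4 in BM-AΦ (27.1% and 23.8%) and 7 and 2 in TR-AΦ at 32-weeks (23.6% and 23.7%). Nfe2l1 encodes the transcription factor that is known to raise proteasome genes when proteasome activity is short. Its log2 differences were 0.59, 1.25 and 0.93 for 4-weeks, BM-AΦ and TR-AΦ at 32-weeks, all called, and Ddi2, the protease that activates this factor, was lower each time with -0.43, -0.66 and -0.65. The stress-induced Zfand2a was higher with 1.59, 2.204 and 2.02, and its relative Zfand5, which also binds proteasomes, was lower with -1.87, -1.55 and -1.48. The proteasome-bound deubiquitinase Usp14 was higher with 0.89, 1.04 and 0.99, the shuttle factor Ubqln1 with 0.60, 0.96 and 0.94, and the segregase Vcp with 0.49, 0.62 and 0.39. Pomp, the chaperone with which the core matures, was lower with -0.80 at 4-weeks and -0.52 in BM-AΦ, and its difference in TR-AΦ at 32-weeks was -0.27 (limma adjusted p = 0.092).

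The difference between TR-AΦ and CD45.2 monocytes was itself compared between the times, as the difference at 32-weeks less that at 4-weeks. By this test 2 of 46 members were called, both higher at 32-weeks, where 3.53% of all 13307 genes were called in that direction. Psme2 had a value of 1.37 ± 0.31 (SE, limma adjusted p = 0.0052). Its FPKM (lowest, median, highest) went from 5.65, 11.5 and 16.3 in CD45.2 monocytes of 4-weeks to 2.51, 5.28 and 6.87 in those of 32-weeks, while TR-AΦ had medians of 5.12 and 5.95. The same value for Psme2b was 0.60 (adjusted p = 0.13) and for their sum 0.69 (limma adjusted p = 0.070), so the call did not hold for the sum of the pair. Psme3 had a value of 0.68 ± 0.20 (limma adjusted p = 0.030), with medians of 25.8 and 27.9 FPKM in TR-AΦ and 26.4 and 19.5 FPKM in CD45.2 monocytes at 4-weeks and 32-weeks. This call was lost in 3 of the other settings, with adjusted p of 0.054 to 0.27, and when any 1 of 9 libraries was left out, with adjusted p of 0.051 to 0.068. Without adjustment 12 members (26.1%) had p under 0.05, against 20.3% of all genes, and the median of the members was 0.26 against 0.04 for all genes.

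PM2.5 and FA mice were compared within each population, 3 libraries against 3, to ask whether exposure moved these genes. By limma 0 of 46 members passed in any of the 6 comparisons. Of all genes tested 0.00790% passed in TR-AΦ at 4-weeks, 0.0158% in BM-AΦ, 0.00778% in CD45.2 monocytes at 4-weeks and 0% in TR-AΦ at 32-weeks and in both monocyte populations of 32-weeks. Without adjustment 3 members had p under 0.05 in TR-AΦ at 4-weeks, 3 in CD45.1 monocytes and 2 in CD45.2 monocytes at 32-weeks, which was 6.52%, 6.52% and 4.35% of them against 2.94%, 4.74% and 4.25% of all genes, and 0 in the others. The median log2 difference of the members, PM2.5 minus FA, was -0.12, -0.04 and 0.01 in TR-AΦ at 4-weeks, TR-AΦ at 32-weeks and BM-AΦ, and 0.09, 0.04 and 0.10 in CD45.2 monocytes at 4-weeks, those of 32-weeks and CD45.1 monocytes. In simulated data of the same size as TR-AΦ at 4-weeks, this test found 2 of 67 genes changed by 0.5 on the log2 scale and 31 of 67 changed by 1, so changes of the size seen here were mostly not detectable with 3 libraries a group.

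Psmb8 and Psmb9 had their largest differences by exposure in monocytes of 32-weeks. Psmb8 was 30.6, 38.3 and 52.0 FPKM in CD45.2 monocytes of FA mice and 49.6, 69.5 and 74.7 in those of PM2.5 mice. In CD45.1 monocytes it was 48.3, 52.3 and 64.9 in FA and 64.1, 70.4 and 82.3 FPKM in PM2.5 mice. Each pair of groups overlapped by 1 value. The log2 differences were 0.68 ± 0.22 (SE) in CD45.2 and 0.39 ± 0.22 in CD45.1 monocytes, with limma adjusted p of 1 and 0.96. Psmb9 was 8.60, 12.3 and 15.5 FPKM in CD45.1 monocytes of FA mice and 17.0, 21.5 and 22.6 in those of PM2.5 mice, and 11.6, 14.1 and 14.1 against 15.6, 18.3 and 22.0 FPKM in CD45.2 monocytes, with no overlap in either. Its differences were 0.73 ± 0.24 and 0.45 ± 0.24 (limma adjusted p = 0.95 and 1). Psmb10 was 20.4, 20.6 and 22.2 FPKM in CD45.1 monocytes of FA mice and 25.6, 28.7 and 36.01 in those of PM2.5 mice. In CD45.2 monocytes of 32-weeks its groups overlapped, with 19.2, 20.9 and 28.8 in FA and 21.4, 26.9 and 28.4 FPKM in PM2.5 mice. Psme1 and Psme2 overlapped between the exposures in both monocyte populations of 32-weeks. In TR-AΦ at 4-weeks Psmb8 went the other way, with 35.4, 38.7 and 43.4 FPKM in FA and 30.8, 32.3 and 33.7 in PM2.5 mice, and a difference of -0.27 ± 0.13 (limma adjusted p = 1). None of these passed the test over all genes. In the same monocyte groups AΦ markers summed to 298.5, 494.3 and 670.2 FPKM in FA and 367.1, 680.9 and 880.3 in PM2.5 mice with CD45.1, and to 459.9, 518.9 and 821.8 in FA and 454.7, 966.4 and 1757 in PM2.5 mice with CD45.2. Dendritic cell markers summed to 60.28, 61.97 and 97.87 in FA and 60.97, 116.4 and 164.8 FPKM in PM2.5 mice with CD45.1, and to 29.07, 54.65 and 85.08 in FA and 64.69, 116.3 and 117.8 in PM2.5 mice with CD45.2. The groups overlapped in all 4 cases, the middle value was higher with PM2.5 in each, and the part of these cells in the differences of Psmb8 and Psmb9 was not tested.

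Counted by groups that did not overlap, 0 members were higher and 4 lower with PM2.5 in TR-AΦ at 4-weeks (Psmb4, Psmd3, Psmb8 and Psmc4, with 2.31% and 3.51% of all genes higher and lower), and 0 and 1 in TR-AΦ at 32-weeks (Psmg1, with 3.23% and 2.76%). In BM-AΦ 5 were higher and 0 lower (Psmc3, Psmb10, Psmc1, Psmd8 and Psme2, with 2.78% and 3.66%). In CD45.2 monocytes at 4-weeks 2 were higher and 0 lower (Psmd7 and Psmd13, with 3.54% and 3.03%). In CD45.1 monocytes 5 were higher and 1 lower (Psma2, Psmc4, Psmb10, Psmf1 and Psmb9, and Psmg1, with 6.49% and 2.40%), and in CD45.2 monocytes at 32-weeks 3 were higher and 0 lower (Psmc2, Psmb9 and Psmb3, with 3.81% and 2.57%). The largest difference in each population was in a chaperone or a gene with copies. Psmg2 had -0.84 ± 0.33 in TR-AΦ at 4-weeks, with 1.31, 2.30 and 3.02 FPKM in FA and 0.372, 0.618 and 1.41 in PM2.5 mice, at a level where log2(FPKM + 1) is compressed. Psmg1 had -0.72 in TR-AΦ at 32-weeks and -0.73 in CD45.1 monocytes. Psme2 had 0.43 in BM-AΦ, Psma4 had 0.40 in CD45.2 monocytes at 4-weeks and Psmb3 had 0.86 in those of 32-weeks. With their copies added these last 3 values were 0.18 for Psme2, 0.32 for Psmb3 and -0.05 for Psma4, which took the opposite sign. Whether the effect of PM2.5 differed between times in TR-AΦ or between TR-AΦ and BM-AΦ was also tested, and 0 members passed in either (0.00790% and 0.0158% of all genes did), with 1 and 0 members at an unadjusted p under 0.05.

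**Figure D5:**
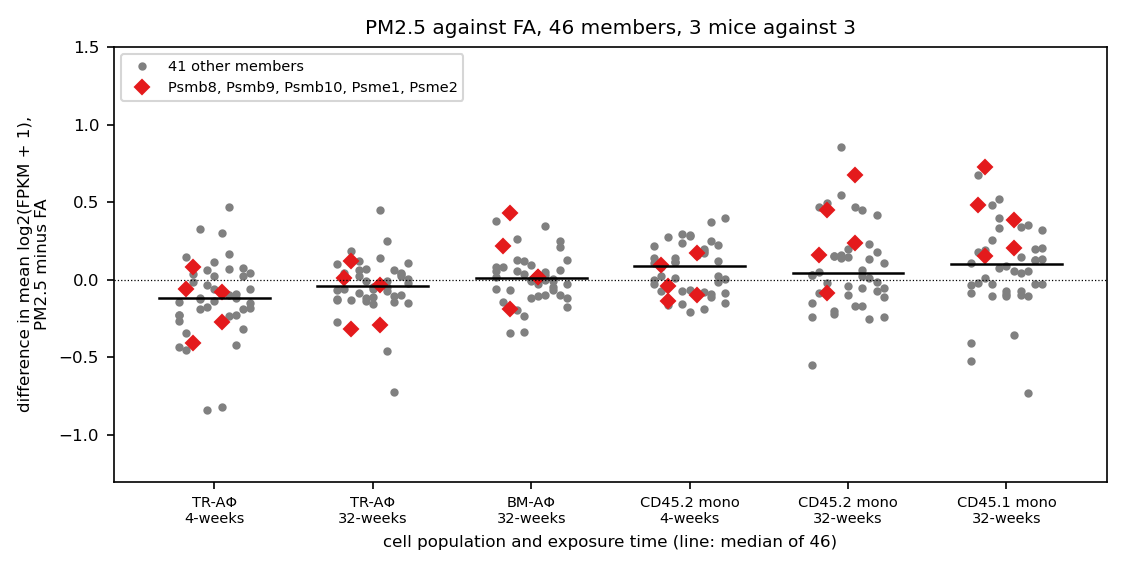
Log2 difference, PM2.5 minus FA, of each of 46 members in 6 cell populations, 3 mice against 3, with the 5 genes reported apart as diamonds and the median of 46 as a line. The medians lie between -0.12 and 0.10 and no member passed the limma test in any population.

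No member passed the same test for time. Between 32-weeks and 4-weeks 0 of 46 were called in TR-AΦ of FA mice (0.782% of all genes), TR-AΦ of PM2.5 mice (1.05%), CD45.2 monocytes of FA mice (7.21%) and CD45.2 monocytes of PM2.5 mice (2.42%), and 3, 9, 5 and 3 members had an unadjusted p under 0.05, which was 6.52%, 19.6%, 10.9% and 6.52% of them against 12.1%, 15.2%, 20.8% and 16.1% of all genes. The median log2 difference of the members, 32-weeks minus 4-weeks, was 0.11 and 0.18 in TR-AΦ of FA and PM2.5 mice and -0.08 and -0.09 in the monocytes, against 0.01, 0.03, -0.05 and -0.03 for all genes. Psma5 had the largest value in TR-AΦ of PM2.5 mice, from 0.844, 1.16 and 2.04 to 3.57, 3.82 and 4.66 FPKM, a difference of 1.12 ± 0.29 (limma adjusted p = 0.084) in a gene whose copies held most of the signal, and with the copies added the difference was 0.36 (adjusted p = 0.65). Psmd3 there had 0.54 (adjusted p = 0.084). In CD45.2 monocytes Psme2 had -0.98 ± 0.34 in FA and -1.02 ± 0.34 in PM2.5 mice (limma adjusted p = 0.11 and 0.13). With Psme2b added these were -0.67 and -0.21 (limma adjusted p = 0.091 and 0.72). Mice of 32-weeks were also older, so exposure time and age cannot be told apart.

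Cells of host and donor origin were compared at 32-weeks over both exposures, 6 libraries each. Between BM-AΦ and TR-AΦ 0 of 46 members were called (0.316% of all genes), with 5 (10.9%) at an unadjusted p under 0.05, against 7.45% of all genes. Psmb8 differed by 0.04 ± 0.09 and Psmb5 by 0.0019 ± 0.18 on the log2 scale, and the largest value was that of Psmg3, -0.65 (limma adjusted p = 0.49). Between CD45.1 and CD45.2 monocytes 0 were called as well (0.669% of all genes), with 1 (2.17%) at an unadjusted p under 0.05, against 9.59% of all genes. This was Psme2, at 8.04 to 11.8 FPKM in CD45.1 and 2.51 to 6.87 in CD45.2 monocytes with no overlap (0.202% of all genes were higher in this way), a difference of 0.87 ± 0.24 (limma adjusted p = 0.16). Psme2b alone differed by 0.07, and with Psme2b added the difference of Psme2 was 0.15 (limma adjusted p = 0.86). Irradiation, busulfan and transplantation were shared by all mice, and no untreated mice were analysed here.

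Promoters of the members were searched for motifs known from interferon and stress responses. RefSeq starts on GRCm38.p6 were matched for 39 of 46 members, with 250 bases before and 50 after the start. The letters GAAANNGAA, the core of the interferon-stimulated response element, were found on either strand in 7 of 39 (17.9%) and in 9.76% of 27025 promoters, and TTCNNNGAA, the letters of the interferon-γ activated site, in 3 (7.69%) and 9.55%. TGACNNNGC, the core of the antioxidant response element, was found in 6 (15.4%) and 14.0%, and CCAAT in 13 (33.3%) and 41.1%. Of the 5 genes reported apart, 1 promoter held GAAANNGAA (Psme1), 1 held TTCNNNGAA (Psmb8) and 1 held CCAAT (Psmb9), while TGACNNNGC was in those of Psmb5 and Psmb6, at 47 and 9 bases before the start. The 250 bases before the start of Psmb8, chr17:34197945-34198194 on the plus strand, are shown with the letters TTCNNNGAA in capitals, 97 bases before the start. The RefSeq start used here lies 474 bases after the GENCODE start of Psmb8, so these bases are inside the GENCODE gene. The RefSeq start of Psme1 lies 371 bases after its GENCODE start. The searched bases of Psmb9, chr17:34187281-34187580 on the minus strand, also lie inside its GENCODE gene (34181987-34187764). For these genes a missing motif does not describe the bases before the GENCODE start.
Psmb8: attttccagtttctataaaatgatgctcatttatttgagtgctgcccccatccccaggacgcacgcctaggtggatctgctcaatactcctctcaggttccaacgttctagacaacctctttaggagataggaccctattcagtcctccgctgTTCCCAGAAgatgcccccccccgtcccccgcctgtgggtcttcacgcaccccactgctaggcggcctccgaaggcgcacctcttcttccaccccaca
The first 30 bases after the start of Psme1, chr14:55578494-55578523 on the plus strand, hold GAAANNGAA on the minus strand, so that its reverse complement is in capitals.
Psme1: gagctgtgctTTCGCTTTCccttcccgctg
A match of letters is a description of the sequence, and binding was not measured in these files.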

How the data were processed

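RNA of AΦ and monocytes sorted from the lungs of 36 mouse samples was sequenced by the study. The authors trimmed reads with TrimGalore, aligned them to mm10 with STAR and the GENCODE annotation and computed FPKM per gene with Cufflinks. The deposited values are these FPKM, scaled for depth and transcript length, and read counts were not used here. The strand setting of the counting is not given in the sources used here.

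FPKM were put on the log2 scale as log2(FPKM + 1), and genes with a mean of at least 1 over the libraries of the model were fitted with limma 3.58.1 in R 4.3.3 with 1 mean per group and a trend in the variance. These were 12665 genes for AΦ, 12856 for monocytes and 13307 for both. There were 15 comparisons and 3 interactions, with Benjamini-Hochberg adjustment over all genes within each and a threshold of 0.05. P-values measure the spread between libraries of 3 mice a group. This spread was estimated over all groups of the model together, also those not being compared. The study used Cuffdiff on reads, which FPKM do not allow.

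The members and lists were chosen with earlier results of these data known. Genes named were Psmb5 to Psmb10, Psme1 and Psme2 throughout, the up to 3 other members per direction with the largest called change and no overlap, the highest and lowest of each role, and up to 3 called genes per direction of the other lists. Further members were named after their values were seen.

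Alternatives were a pseudocount of 0.1, no filter, quantile normalization, rescaling to a sum of 1000000, only the groups compared, a replicate block and leaving out each library. Adding the copies was chosen after seeing the data. Copies were found with blastn 2.17.0+ in GENCODE transcripts, and promoters were those of RefSeq on GRCm38.p6. In simulated data for AΦ against monocytes at 4-weeks limma called 44 of 67 genes changed by 1 on the log2 scale and 6 of 13107 unchanged genes. Libraries were not paired, because the labels do not say that a replicate number is a mouse. In no comparison were the correlations of all same-numbered libraries over 0.1, which cannot show that they were unpaired. Plots used matplotlib 3.10.9 with Python 3.11.15. The authors' comparisons and flow cytometry were not analysed here. Results for some genes of the lists are not given here.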

Additional observations from a re-analysis of the deposited data

Results flagged for a closer look

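The difference between TR-AΦ and CD45.2 monocytes was called as changing between the 2 times for 2 of 46 members. Of all genes 3.53% were called in the same direction, which is near the share of the members. The count is therefore not particular to them. On the log2 scale the difference of Psme2 was higher by 1.37 at 32-weeks than at 4-weeks (limma adjusted p = 0.0052), and adding its copy Psme2b reduced this to 0.69 (adjusted p = 0.070). That of Psme3 was higher by 0.68 (limma adjusted p = 0.030), and under the other settings and left-out libraries its adjusted p ran from 8.9e-04 to 0.27. With 3 libraries a group, no single library was tested for standing apart.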

How the results depend on the processing

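Of the values outside the counts, 443 kept their direction and side of the threshold under the other settings, 11 lost and 14 gained a call and 6 changed sign, and with 1 library left out these were 627, 9, 10 and 2. Values with a changed sign were those of Psmb10 in BM-AΦ (0.27), Psmb10 in TR-AΦ at 32-weeks (0.10), Psmb9 in BM-AΦ (0.030) and Psme2 in BM-AΦ (0.049), all against monocytes after rescaling to a sum of 1000000, Psme2 in TR-AΦ at 32-weeks (-0.34) and Psma4 with PM2.5 in monocytes at 4-weeks (-0.054) with copies added, and Psmb10 in TR-AΦ at 32-weeks without FA replicate 0 of TR-AΦ (0.0070) or FA replicate 1 of the monocytes (0.011), over a range of -0.16 to 0.011 with 1 library left out. None of these was called before or after.

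Rescaling gave 35 members called in BM-AΦ against monocytes. For the difference between times of TR-AΦ less monocytes, 1 member was called with copies added, in only the groups compared, after quantile normalization and after rescaling. Quantile normalization called 1 member, Psma5, with time in TR-AΦ of PM2.5 mice. Leaving out 1 library gave 15 to 19 calls for AΦ against monocytes at 4-weeks, 20 to 25 in BM-AΦ, 23 to 28 in TR-AΦ at 32-weeks, 1 to 5 for the difference between times, 0 to 1 with time in monocytes of FA mice, where Psme2 was called without FA replicate 0 of 4-weeks (-1.37), and 0 in every other comparison. The cause was not tested.

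With the replicate number as a block within each time point, 21, 25 and 27 members were called at 4-weeks, in BM-AΦ and in TR-AΦ at 32-weeks, and within exposure and time point 22, 26 and 25. The block gave 4 calls for the difference between times, 2 with time in monocytes of FA mice, 1 in those of PM2.5 mice and 1 in TR-AΦ of PM2.5 mice, and 0 members in every comparison of PM2.5 with FA. Correlations of same-numbered libraries ran from -0.088 to 0.21, in no comparison all over 0.1. In monocytes with PM2.5 at 4-weeks, though, all 3 (0.070 to 0.21) were above those of other pairs (at most 0.042). The same held with PM2.5 in CD45.1 monocytes (0.041 to 0.091, others at most 0.023). It also held with time in CD45.2 monocytes of PM2.5 mice (0.030 to 0.10, others at most 0.017). These pairs come from different mice. The pattern held too for TR-AΦ with CD45.2 monocytes in FA at 4-weeks (0.016 to 0.058, others at most -0.0044). At 32-weeks it held for them in PM2.5 (0.030 to 0.068, others at most 0.014). BM-AΦ with TR-AΦ showed it in FA (0.044 to 0.063, others at most 0.025). CD45.1 with CD45.2 monocytes showed it in PM2.5 (0.016 to 0.050, others at most 0.011). The pattern was absent in the other exposure of each of these comparisons, and in both exposures for BM-AΦ with CD45.1 monocytes. Whether such libraries shared mice cannot be settled from these values. Depth is unknown in FPKM, and 3 libraries a group leave changes under 1 on the log2 scale mostly undetected.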

Other observations

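Of 23 interferon-induced genes tested, 19, 19 and 18 were lower in TR-AΦ at 4-weeks, BM-AΦ and TR-AΦ at 32-weeks against the monocytes of the same origin, and 1, 1 and 0 were higher. Of all genes tested 25.5%, 23.8% and 23.7% were lower. Irf7, a transcription factor of the interferon response, had log2 differences of -4.41, -4.27 and -4.34, and the antiviral Rsad2 had -3.26, -3.04 and -2.64. The guanylate-binding protein Gbp7 was the gene that was higher, with 0.56 and 0.63 at 4-weeks and in BM-AΦ.

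Of 15 genes of class I peptide loading and its regulators, 11 were lower at 4-weeks, 3 in BM-AΦ and 4 in TR-AΦ at 32-weeks, and 2, 3 and 1 were higher. Of all genes 25.5%, 23.8% and 23.7% were lower and 22.6%, 27.1% and 23.6% were higher, in the same order. The counts of lower genes at 32-weeks were close to these shares. Nlrc5, the transactivator of class I genes, had log2 differences of -2.66, -1.88 and -2.41, the peptide transporter subunit Tap1 had -1.93, -1.45 and -1.23, and Irf1 had -1.03, -1.90 and -2.43. The class I light chain B2m was lower at 4-weeks with -1.26 and had -0.35 in both comparisons of 32-weeks (limma adjusted p = 0.10 and 0.11). The chaperones of the endoplasmic reticulum Calr and Canx were higher at 4-weeks with 0.77 and 0.62. The lists share 2 genes, of which Irf1 is one. With PM2.5 against FA no gene of either list was called by limma in any population.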
